A study of Trachemys scripta with 4 samples.

Results

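The neurotrophin and GDNF ligands and receptors are 9 genes chosen by their symbols. They are the receptors NTRK2, NTRK3, NGFR, RET, GFRA1 and GFRA2 and the ligands BDNF, NTF3 and GDNF. All 9 were found among the 15289 genes of the expression table, and all 9 passed the filter used here, at least 1 TPM in at least 2 columns. RNA was sequenced from pieces of the brachial and sacral plexus of *Trachemys scripta* (slider turtle) embryos, with 1 sample at stage 19 (st.19) and 1 at stage 21 (st.21). No treatment of the embryos is named, and for both stages the eggs came from females given oxytocin to make them lay. According to the study, the nerves were small and surrounding tissue may have been taken with them. Each sample is present as 2 columns, replicate 1 and replicate 2.

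Neurotrophins are secreted survival and growth factors of peripheral neurons. In mammals, BDNF binds the Trk receptor tyrosine kinase TrkB from NTRK2, and neurotrophin-3 from NTF3 binds TrkC from NTRK3, while all neurotrophins bind the p75 receptor encoded by NGFR. GDNF and its relatives bind a membrane-anchored co-receptor of the GFRA family, which presents them to the shared receptor tyrosine kinase RET. In mammalian nerves the Trk receptors and RET mark classes of sensory, motor and autonomic neurons, and immature Schwann cells carry p75 and GFRA1. The comparison addressed here is how far the RNA of these genes differed between the st.19 and the st.21 nerve.

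The levels are given in TPM, which divides the reads of a gene by its length and scales each column to a total of 1000000. The values step in whole reads, and the recovered reads summed to 4353821 and 4241655 at st.19 and to 2229177 and 2129599 at st.21. Columns of the same stage were closer to each other than independent draws of reads would be (chi-square per gene 0.433 at st.19 and 0.330 at st.21, over genes with 5 to 500 reads). Averaged over these genes, the columns differed by less than sampling noise. Genes with more reads were left out of this check, namely NGFR, NTRK2, NTRK3, RET and GFRA2 at st.19 and NGFR at st.21. In log2 TPM, replicate 1 of NGFR exceeded replicate 2 by 0.74 at st.19, against 0.53 for the median gene. At st.21 it did so by 0.12, against −0.002. The 2 columns of a stage were counted as 1 sample. The stages were therefore compared without a replicate check, and no p-value is given. Where stages are said to overlap or not, this describes the TPM values of the columns. These include the scaling of each column, so overlap is not a measure of replicate spread. Differences are the mean log2 TPM at st.21 minus that at st.19, and the 95% intervals cover counting error only. A single rRNA gene took up 18.9% and 44.2% of all TPM at st.19 but 0.145% and 0.317% at st.21. The median difference of all 15100 genes that passed the filter was 0.06 as deposited. With that gene left out of the total, 15225 genes passed the filter and their median was −0.52. For this reason the difference of each of the 9 genes is also given relative to the median gene, and ratios of genes within a column, in which the scaling cancels, are given beside them.

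Of the 9 genes, 6 were lower and 3 higher at st.21, with a median log2 difference of −0.45 against 0.06 for all genes. GFRA1, BDNF and RET were below −1, and NTF3 was above 1. Among all 15100 genes, 9.68% were below −1, 17.3% above 1, and 26.9% past either limit, while 53.1% were higher at st.21. The genes below −1 numbered 1461 and those above 1 numbered 2605. With the rRNA gene left out of the total, 4183 of 15225 genes were below −1 and 1070 above 1. NTRK2 and NTRK3 were then also below −1, and NTF3 came to 0.95. As the tissue was analysed in bulk, fewer cells of a type and less RNA per cell cannot be told apart.

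At st.19 the order of the levels ran from NGFR over RET, GFRA2, NTRK2, NTRK3, GFRA1 and BDNF to GDNF and NTF3. In the replicate 1 column, 3 pairs of neighbours in this order did not differ beyond counting error, namely RET and GFRA2, NTRK2 and NTRK3, and GDNF and NTF3. At st.21 the order was NGFR, GFRA2, NTRK3, RET, NTRK2, GFRA1, BDNF, NTF3 and GDNF. Here NTRK3 and RET, RET and NTRK2, BDNF and NTF3, and NTF3 and GDNF did not differ beyond counting error. The receptors thus lay above the ligands at both stages. RET and GFRA2, which were level at st.19, lay apart at st.21, where RET was lower and GFRA2 within its st.19 values.

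**Figure D1:**
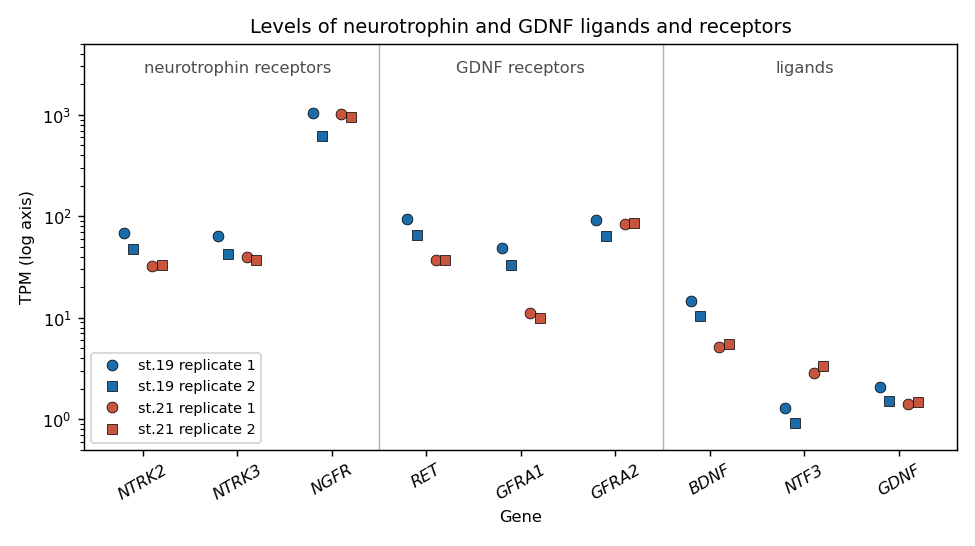
TPM of each gene (log axis) in the 2 st.19 columns (blue) and the 2 st.21 columns (red), with circles for replicate 1 and squares for replicate 2. NGFR stands above all others at 626 to 1042 TPM, and the st.21 points of RET, GFRA1 and BDNF lie below their st.19 points.

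NTRK2, the receptor of BDNF, on chromosome 6 from 86402918 to 86676429, was lower at st.21. It had 68.2 and 47.3 TPM at st.19 (1508 and 1440 reads) and 32.4 and 33.2 TPM at st.21 (345 and 341 reads). The st.21 values lay below both st.19 values, with a log2 difference of −0.79, or −0.85 relative to the median gene. Between the replicate 1 columns the log2 ratio of the reads was −1.08 (95% interval −1.25 to −0.91), and between the replicate 2 columns the interval was −0.69 to −0.34. The intervals of the 2 pairs of columns do not meet, so the scaling of the st.19 columns moves the size of this difference by more than its counting error.

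NTRK3, the receptor of neurotrophin-3 and in mammals a mark of proprioceptive neurons, on chromosome 10 from 71538294 to 71870767, differed less. Its levels were 64.0 and 42.7 TPM at st.19 (1682 and 1543 reads) and 39.3 and 37.2 TPM at st.21 (498 and 454 reads). The columns of the stages did not overlap, and the log2 difference was −0.45, or −0.51 relative to the median gene. NTRK3 was higher at st.21 relative to NTRK2. The ratio of NTRK2 to NTRK3 was 1.06 and 1.11 at st.19 and 0.823 and 0.892 at st.21, a log2 change of −0.37 in the replicate 1 columns (interval −0.60 to −0.15), and the interval in the replicate 2 columns was −0.55 to −0.08.

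NGFR, the p75 receptor, on chromosome 23 from 9900187 to 9938823, had the highest level of the 9 genes. With 1042 and 626 TPM at st.19 (8726 and 7205 reads) and 1029 and 949 TPM at st.21 (4160 and 3693 reads), it ranked 68 and 77 of 15289 genes at st.19 and 123 and 137 at st.21. The stages overlapped, and the log2 difference was 0.29, or 0.23 relative to the median gene. The unadjusted difference changed sign with the columns and the scaling used. It was −0.02 between the replicate 1 columns (interval −0.07 to 0.04) and 0.60 between the replicate 2 columns (interval 0.54 to 0.66). It also turned to −0.28 without the rRNA gene, to −0.23 when the total was that of protein-coding genes, and to −0.58 with quantile normalization. The median of all genes in these settings was −0.52, −0.47 and −0.07. Without replicate 1 of st.19 NGFR was at 0.66 and the median gene at 0.33. Without replicate 2 of st.19 they were at −0.08 and −0.21. NGFR thus lay above the median gene under every alternative except quantile normalization. Within a column, NGFR was higher at st.21 relative to NTRK2 and NTRK3, and lower relative to the Schwann cell marker SOX10. The ratio of NGFR to NTRK2 was 15.3 and 13.2 at st.19 and 31.9 and 28.6 at st.21, a log2 change of 1.06 (interval 0.88 to 1.24). The ratio of NGFR to NTRK3 was 16.3 and 14.7 at st.19 and 26.2 and 25.6 at st.21, a log2 change of 0.69 (interval 0.53 to 0.84). The ratio of NGFR to SOX10 was 4.82 and 4.28 at st.19 and 3.13 and 2.85 at st.21. Its log2 change was −0.62 (interval −0.75 to −0.49), and the interval in the replicate 2 columns was −0.72 to −0.46. The other Schwann cell markers used did not all lie on the same side of NGFR. The log2 differences of ERBB3, PMP22, MBP and FOXD3 were above that of NGFR, like that of SOX10. Those of S100B and CDH19, −0.40 and −0.32, were below it.

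RET, the signalling receptor of the GDNF family, on chromosome 7 from 68694301 to 68750537, was lower at st.21. It had 94.2 and 65.8 TPM at st.19 (904 and 869 reads) and 37.3 and 37.1 TPM at st.21 (172 and 165 reads). The st.21 values were below both st.19 values, and the log2 difference was −1.08, or −1.14 relative to the median gene. The replicate 1 ratio was −1.34 (interval −1.59 to −1.11), and 8.30% of all genes had a lower difference. Without replicate 1 of st.19 the difference was −0.82, so that on the deposited scale 1 column decides on which side of −1 RET lay. The median of all genes also moved up in that setting, from 0.06 to 0.33.

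GFRA1, the GDNF co-receptor, on chromosome 7 from 112987156 to 113172424, differed most among the receptors. Its levels were 48.7 and 33.4 TPM at st.19 (324 and 305 reads) and 11.2 and 10.0 TPM at st.21 (35 and 30 reads). The stages lay far apart in all 4 columns, with a log2 difference of −1.93, or −1.99 relative to the median gene, a level 3.81-fold lower at st.21. The replicate 1 ratio was −2.16 (interval −2.71 to −1.65), only 1.43% of all genes had a lower difference, and GFRA1 went from rank 3498 to rank 9609 in the replicate 1 columns. It was below −1 under all 12 alternatives tried, from −2.50 to −1.66. Of these, the 5 other scalings all moved it further down, and the other minimum levels left it unchanged.

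GFRA2, the co-receptor of neurturin, on chromosome 2 from 152143563 to 152243317, had 92.9 and 63.7 TPM at st.19 (695 and 655 reads) and 83.4 and 86.0 TPM at st.21 (301 and 299 reads). The st.21 values lay between the st.19 values. The log2 difference was 0.14, or 0.08 relative to the median gene, and the interval between the replicate 1 columns was −0.36 to 0.04. The difference turned to −0.43 without the rRNA gene, to −0.39 with the protein-coding total and to −0.18 with quantile normalization. The median of all genes in these settings was −0.52, −0.47 and −0.07. The difference between GFRA1 and GFRA2 did not rest on the scaling. The ratio of GFRA1 to GFRA2 was 0.522 and 0.521 at st.19 and 0.130 and 0.112 at st.21, a log2 change with an interval of −2.59 to −1.45 in the replicate 1 columns and of −2.84 to −1.63 in the replicate 2 columns. GFRA1 was also lower relative to RET, with ratios of 0.515 and 0.504 at st.19 and 0.292 and 0.261 at st.21 (log2 change −0.82, interval −1.42 to −0.25). GFRA2 was higher relative to RET, with ratios of 0.986 and 0.967 at st.19 and 2.24 and 2.32 at st.21 (log2 change 1.19, interval 0.87 to 1.50).

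The co-receptor family also holds GFRA3 and GFRA4. GFRA4, the co-receptor of persephin in mammals, had the highest level of the family, 239 and 157 TPM at st.19 and 500 and 471 TPM at st.21, a log2 difference of 1.33. GFRA3, the co-receptor of artemin, had 74.1 and 50.9 TPM at st.19 and 56.8 and 55.5 TPM at st.21, a log2 difference of −0.13. Without replicate 1 of st.19 it turned to 0.14, below the median of all genes in that setting, 0.33. GFRA1 held 10.7% and 10.9% of the reads per nt of the 4 co-receptor genes at st.19 and 1.66% and 1.55% at st.21. GFRA2 held 20.4% and 20.9% at st.19 and 12.8% and 13.8% at st.21, and GFRA4 held 52.6% and 51.6% at st.19 and 76.9% and 75.8% at st.21. The ratio of GFRA4 to GFRA2 changed by 1.15 on the log2 scale in the replicate 2 columns (interval 0.92 to 1.39).

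**Figure D2:**
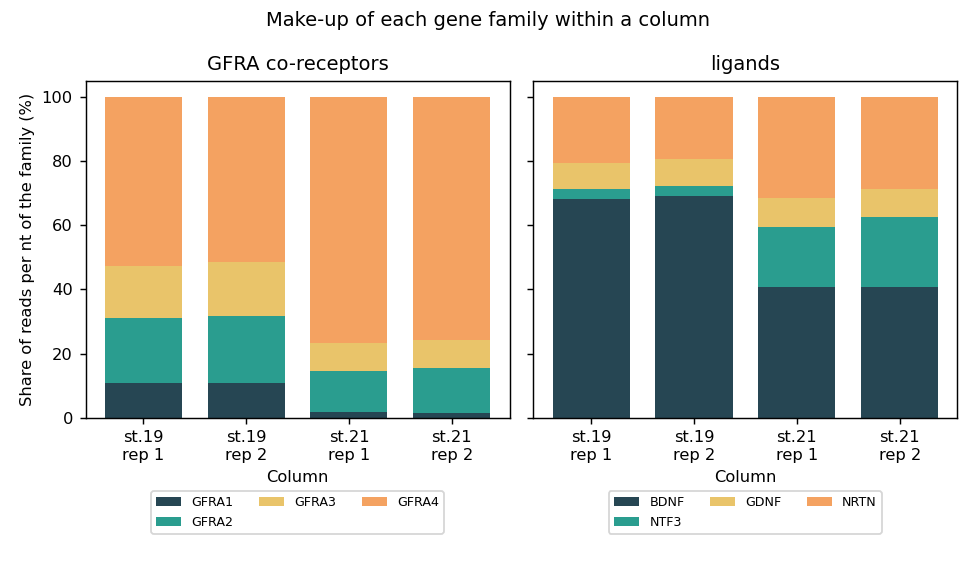
Stacked bars give the share (%) of each gene in the reads per nt of its family, in each of the 4 columns, for the GFRA co-receptors and for the ligands BDNF, NTF3, GDNF and NRTN. The columns of a stage are alike, GFRA1 shrinks from 10.7% to 1.66% of the co-receptors in replicate 1, and BDNF from 68.2% to 40.6% of these ligands.

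The ligands were at low levels. BDNF, the ligand of TrkB, on chromosome 4 from 87868859 to 87918096, had the highest TPM of the 3 at both stages. In the st.21 replicate 1 column it did not differ from NTF3 beyond counting error. BDNF had 14.5 and 10.3 TPM at st.19 (152 and 148 reads) and 5.10 and 5.49 TPM at st.21 (25 and 26 reads). The st.21 values were below both st.19 values, with a log2 difference of −1.21, or −1.27 relative to the median gene. The replicate 1 ratio was −1.55 (interval −2.23 to −0.94). Without replicate 1 of st.19 the difference came to −0.96, where the median of all genes was 0.33. BDNF and its receptor NTRK2 were both lower at st.21, and whether BDNF was lower by more was not resolved. The ratio of BDNF to NTRK2 was 0.210 and 0.214 at st.19 and 0.151 and 0.159 at st.21, and the interval of its log2 change, −1.17 to 0.17, included 0.

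NTF3, which encodes neurotrophin-3, on chromosome 1 from 128864455 to 128924867, was the only one of the 9 genes above 1, and it rested on few reads. It had 1.28 and 0.912 TPM at st.19, from 3 reads in each column, and 2.83 and 3.38 TPM at st.21, from 5 and 6 reads. These TPM values also hold the prior count added to the reads of every gene. That prior count was 2.86 and 2.73 at st.19 and 1.23 and 1.18 at st.21. The columns did not overlap, with a log2 difference of 1.51, or 1.45 relative to the median gene, but the interval between the replicate 1 columns was −0.57 to 4.47 and included 0, while that between the replicate 2 columns was 0.34 to 5.19. With log2(TPM + 1) the difference was 0.97. Relative to BDNF, NTF3 was higher at st.21, as the ratio of BDNF to NTF3 went from 21.7 and 21.2 to 2.15 and 1.86 (log2 change −3.31, interval −6.09 to −0.85).

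GDNF, the ligand of GFRA1 and RET, on chromosome 6 from 23867059 to 23893644, had 2.08 and 1.50 TPM at st.19 from 13 reads in each column, and 1.42 and 1.46 TPM at st.21 from 4 reads in each column. The st.21 values lay just below the lower st.19 value, with a log2 difference of −0.29, or −0.35 relative to the median gene. The interval between the replicate 1 columns, −2.72 to 1.04, included both 0 and the replicate 1 value of its co-receptor GFRA1. A difference of GDNF was not detectable at this depth.

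NRTN, which encodes neurturin, the ligand of GFRA2, had 4.53 and 2.98 TPM at st.19 and 3.97 and 3.94 TPM at st.21, with overlapping stages and a log2 difference of 0.11 that turned negative under some scalings. BDNF made up 68.2% and 69.0% of the summed reads per nt of BDNF, NTF3, GDNF and NRTN at st.19 and 40.6% in each st.21 column. NTF3 made up 3.14% and 3.26% at st.19 and 18.9% and 21.8% at st.21. The share of GDNF lay between 8.15% and 9.07% in all 4 columns, and that of NRTN was 20.5% and 19.3% at st.19 and 31.4% and 28.8% at st.21. In all, 10 ratios of genes were computed.

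**Figure D3:**
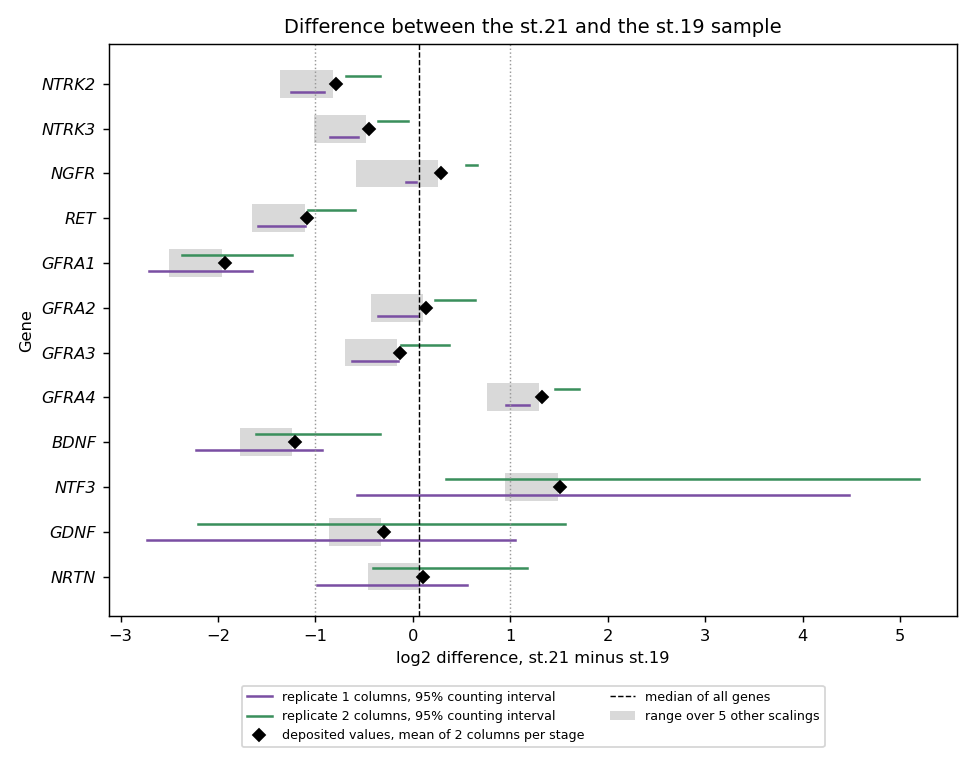
The log2 difference (st.21 minus st.19) of the 9 genes and of GFRA3, GFRA4 and NRTN. Diamonds are the deposited values, grey bars the range over 5 other scalings, coloured lines the 95% counting intervals of the replicate 1 and replicate 2 columns, and the dashed line the median of all genes. GFRA1 lies left of −1 throughout, the bars of NGFR and GFRA2 cross 0, and the lines of NTF3 and GDNF are the widest.

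A list of 66 other genes of these pathways, from further ligands and receptors to adaptors, proteases and response genes, held 57 genes of the table, of which 56 passed the filter. Their median log2 difference was 0.10, close to that of all genes, with 30 higher and 26 lower, 8 above 1 and 4 below −1. Of all genes, 53.1% were higher, 17.3% above 1 and 9.68% below −1. Of the 9 other receptors of this list in the table, 7 were higher and 2 lower. SORCS1, a sortilin-related sorting receptor, had 59.4 and 41.3 TPM at st.19 and 93.9 and 92.7 TPM at st.21, a log2 difference of 0.91. SORT1 (sortilin, which binds proneurotrophins together with p75), SORCS2, NCAM1 (an alternative GDNF receptor), LINGO1 and RTN4R (partners of p75 in the Nogo receptor complex) had differences of 0.20, 0.15, 0.10, 0.45 and 0.30. All 5 of them turned negative without the rRNA gene, but stayed above the median of all genes in that setting, −0.52. SORCS3 had a difference of −0.61 from 17 and 16 reads at st.19 and 5 and 3 reads at st.21.

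Among 25 adaptor and signalling genes that passed the filter, 13 were higher and 12 lower, with a median of 0.03. KIDINS220, a scaffold of Trk and p75 receptors, had the largest difference, with 134 and 90.9 TPM at st.19 and 35.2 and 35.4 TPM at st.21. Its log2 difference of −1.65 lay between −2.21 and −1.36 under the 12 alternatives. SH2B2 and SH2B3, adaptor proteins of receptor tyrosine kinases, differed by 1.51 and 1.36. GRB7, an adaptor that binds RET, missed the filter. It had 11 reads in each st.19 column and 0 in each st.21 column. The interval of its log2 ratio ended at −0.28 between the replicate 1 columns. Between the replicate 2 columns it ended at 0.24 and so included 0.

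Of the 7 genes in the protease group of the list, 3 were higher and 4 lower, with a median of −0.41. PLAT, the tissue plasminogen activator, differed by 1.26 (10.9 and 7.55 TPM at st.19, 21.0 and 22.5 TPM at st.21). PCSK6 differed by −1.21 and rested on 20 and 21 reads at st.19 and 4 and 2 reads at st.21. PCSK2, a prohormone convertase of neurons and endocrine cells, differed by −1.19, with 89.7 and 62.5 TPM at st.19 and 32.9 and 32.6 TPM at st.21.

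Among 14 feedback and response genes, 6 were higher and 8 lower, with a median of −0.06. ARC, an activity-induced gene of neurons, and SPRY4, an inhibitor of receptor tyrosine kinase signalling, differed by 2.07 and 1.58. ARC had 14 and 12 reads at st.19 and 26 and 25 reads at st.21. ETV1, which marks proprioceptive sensory neurons in the mouse together with NTRK3, had 193 and 135 TPM at st.19 and 62.6 and 63.7 TPM at st.21, a log2 difference of −1.36.

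Markers of several cell types also differed between the stages, some lists higher and some lower at st.21. All marker values are on the deposited scale and were not recomputed under the alternatives. Leaving out the rRNA gene moved the median of all genes from 0.06 to −0.52. The 7 Schwann cell markers used (among them SOX10 and ERBB3) summed to 1456 and 999 TPM at st.19 and to 2010 and 1955 TPM at st.21, with a median log2 difference of 0.75, a range of −0.40 to 1.11 and 5 of 7 higher. Of 11 general neuron markers in the table, 7 were lower and 4 higher, their median was −0.18 with a range of −1.57 to 0.40, and they summed to 7102 and 4893 TPM at st.19 and to 5119 and 5210 TPM at st.21. The differences of NTRK2, NTRK3 and RET lay within this range, and that of GFRA1, −1.93, lay below it. The sympathetic neuron genes ranged from −1.95 to −0.84, but only HAND2 was lower than GFRA1. The next lowest of them, DBH, was at −1.68. The 5 sensory neuron transcription factors in the table had a median of −0.77, with overlapping stages for POU4F1 and RUNX3, and summed to 704 and 486 TPM at st.19 and to 307 and 317 TPM at st.21. The transcription factors PRDM12 and ISL1 of this list had 343 and 235 TPM and 267 and 189 TPM at st.19, so RNA of neuronal transcription factors was present in tissue labelled as nerve. All 5 sympathetic neuron genes were lower (median −1.53, 158 and 111 TPM at st.19, 44.3 and 40.6 TPM at st.21). The 3 motor neuron genes in the table had a median of −0.43, and their sums overlapped, with 82.1 and 58.2 TPM at st.19 and 58.5 and 59.9 TPM at st.21. The part of neuron numbers in the lower levels of NTRK2, NTRK3, RET, GFRA1 and BDNF was not tested.

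Muscle, fibroblast and endothelial genes were higher at st.21, except for the fibroblast gene PDGFRA, whose stages overlapped. The 6 skeletal muscle genes summed to 85.3 and 55.2 TPM at st.19 and to 2151 and 2132 TPM at st.21, with a median log2 difference of 4.88. The 6 fibroblast genes, with a median of 1.80, summed to 4791 and 3249 TPM at st.19 and to 22548 and 22219 TPM at st.21, and the 3 endothelial genes had a median of 0.86. In mammals, muscle and skin are sources of neurotrophin-3 and GDNF, and the part of these tissues in the values of NTF3 and GDNF was not tested.

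**Figure D4:**
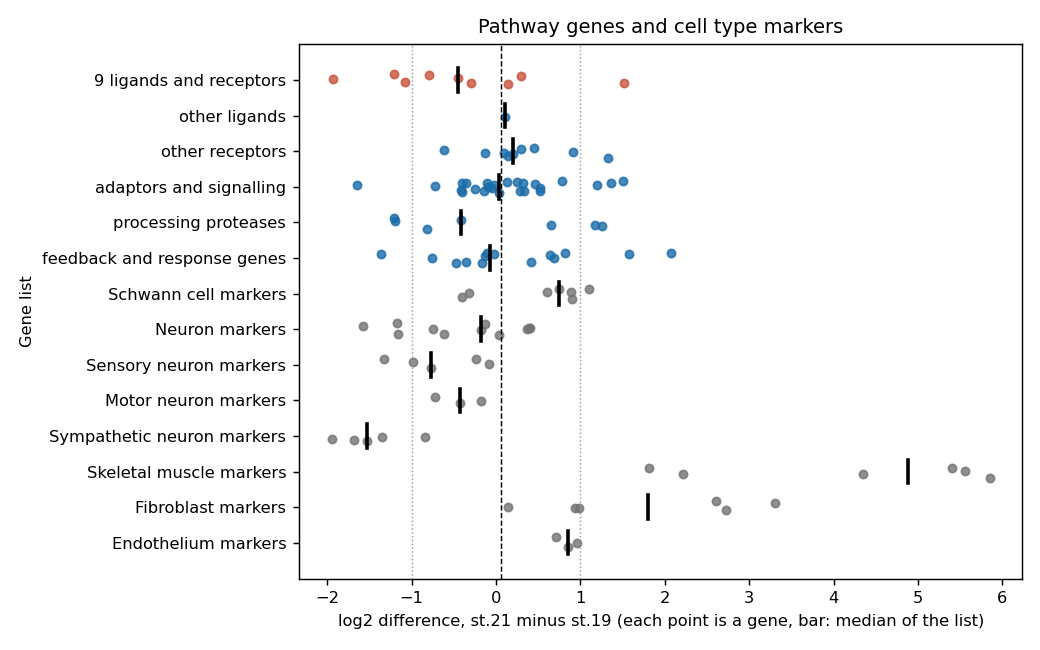
Each point is the log2 difference (st.21 minus st.19) of 1 gene that passed the filter, by gene list, with a bar at the median of the list and a dashed line at the median of all genes. The 9 ligands and receptors (red) range from −1.93 to 1.51, all sympathetic neuron markers lie below 0, and the skeletal muscle markers reach 5.85.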

How the data were processed

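Stage and replicate were taken from the labels, and each column was tied to a sample by its name. The authors aligned reads with HISAT2 to the CAS_Tse_1.0 assembly as single-end files, counted them per gene with featureCounts, dropped genes with a low CPM in edgeR 3.42.4 and deposited log2 TPM values, which include a prior count. Whether strand was used in the counting is not given in the sources used here. No gene of the 9 overlaps another gene in the RefSeq table of the same assembly, from which the coordinates were taken.

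To recover whole reads, lengths up to 150000 nt were searched per gene for the one at which all 4 columns become whole (tolerance 1e-06 reads). Exactly 1 such length was found for all 15289 genes (100%) and for 100% of 3000 genes tested on simulated data, and the lengths of 3626 genes listed by the study were all recovered. Differences were taken on the deposited log2 scale, where the prior count understates those of genes with few reads. Intervals (95%) are exact binomial (Clopper-Pearson) for the reads of a gene in 2 columns and exact conditional for ratios of genes, from the reads of the replicate 1 columns unless stated. They treat reads as independent molecules.

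No test was run, as each stage is 1 sample, and a log2 difference past 1 or −1, the fold limit in the study's methods, served as a rule of size. The text names all 9 genes, every listed ligand and receptor analysed here, and the 3 largest differences in each other subgroup among genes that passed the filter. GRB7, which missed the filter, was added after its values were seen. Alternatives were other totals, quantile normalization, median centring, effective library sizes, another pseudocount, other minimum levels and leaving out each column. The genes and lists were chosen with earlier results of these data known. Of the listed pathway genes, 9 had no matching symbol and were not analysed here. Some genes of these families and marker lists are not reported here. No sequences were used here. Intervals were computed with scipy 1.17.1, tables with pandas 2.3.3 and numpy 2.4.6, and plots with matplotlib 3.10.9, under Python 3.11.15.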

Additional observations from a re-analysis of the deposited data

How the results depend on the processing

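The direction of NTRK2, NTRK3, RET, GFRA1, BDNF, NTF3 and GDNF was the same under every alternative that gave a value, while NGFR and GFRA2 turned negative under 4 of 12. Leaving the rRNA gene out of the TPM total gave 1070 genes above 1 and 4183 below −1, 0 and 5 of the 9 genes, and 2 and 10 pathway genes, with medians of −1.02 for the 9 genes and −0.47 for the pathway list. A total of protein-coding genes gave 1045 and 3590 genes, 0 of the 9 genes above 1, and 2 and 9 pathway genes, with medians of −0.98 and −0.43. Both reapplied the filter, and the latter also left 14368 genes. Quantile normalization gave 5 pathway genes above 1. With log2(TPM + 1), and with a minimum of 5 TPM, which removed NTF3 and GDNF, 0 of the 9 genes were above 1, and the latter moved their median to −0.79. Leaving out each column in turn gave 1735 to 3800 genes above 1 and 920 to 2393 below −1, 1 to 4 of the 9 genes below −1, and 5 to 11 pathway genes above 1. The extremes came from leaving out replicate 1 or replicate 2 of st.19. No paired analysis was possible because no test was run with 1 sample per stage. Depth limits NTF3 and GDNF, with 3 to 13 reads per column.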
